A study of Mus musculus with 6 samples.

Results

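The interferon-inducible GTPases described here are 7 immunity-related GTPases (IRG), *Irgm1*, *Irgm2*, *Igtp*, *Iigp1*, *Ifi47*, *Tgtp1* and *Tgtp2*, and 3 guanylate-binding proteins (GBP), *Gbp2*, *Gbp3* and *Gbp7*. These 10 genes were taken by gene name from the 57180 rows of a gene expression table of mouse primary hepatocytes. They were chosen with the difference between the groups in view, so their values are given as a description and carry no test. Of the 10, 9 had enough reads to enter the comparison across the 14151 tested genes, and *Tgtp2* did not.

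Hepatocytes came from male C57BL/6 mice, 8 to 10 weeks old by the study's methods, in 2 groups of 3 libraries. LOXP libraries came from STING floxed mice without the deletion. KO libraries came from STING floxed mice crossed with Albumin-Cre mice. The study describes this cross as a knockout of STING specific to hepatocytes. STING is the adaptor through which the DNA sensor cGAS switches on interferon and inflammatory genes, and the comparison asks how hepatocyte expression differs with the genotype under lipid load. The cells of all 6 libraries were kept for 24 h with palmitate, a saturated fatty acid, at 0.1 mM, and no untreated library was analysed here. The labels do not state whether each library is a separate animal or culture, so the spread between libraries may be technical.

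The libraries held 14726983 to 18536985 counted reads, and mitochondrial genes took 3.86% to 4.65% of them. *Sting1*, the gene of STING, had 19, 16 and 23 counts in LOXP replicates 1, 2 and 3 and 24, 23 and 15 counts in KO replicates 1, 2 and 3, and a lower level in KO was not detected (log2 difference -0.08, adjusted p = 0.883). The deleted exons are not named in the sources used here, so counts over the whole gene cannot check the deletion. By RT-PCR, the study reports STING mRNA in purified control hepatocytes and a loss of this mRNA with the knockout. Whether the RT-PCR used the same cells as these libraries is not stated. In the data used here the genotype rests on the labels, and KO below always means the libraries so labelled. Of the cell type marker lists, that of hepatocytes had the highest summed FPKM in each library. Its sum was 10983 to 11383 in LOXP and 9348 to 9549 in KO over 19 genes. LOXP replicate 2 stood apart in inflammatory genes. The chemokine *Ccl2* was at 1253 CPM there and at 331 and 387 CPM in the other LOXP libraries, against 200.3 to 206 CPM in KO. The cytokine *Il1b* had 75 counts in LOXP replicate 2 and 0 in the other 5 libraries. Counts of the members, their families, the transcription factors and the vacuole, antiviral and MHC class I genes are therefore also given without that library.

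IRG proteins are GTPases that cells make after exposure to interferon and that act on the membranes around intracellular bacteria and parasites. In the GMS class, Irgm1, Irgm2 and Igtp (also called Irgm3) sit on the cell's own membranes and hold the other class in an inactive state. In the GKS class, Iigp1 (Irga6), Ifi47 (Irgd), Tgtp1 and Tgtp2 (both Irgb6) load onto the vacuole of the pathogen and break it. GBP proteins are larger, dynamin-like GTPases that follow to the same membranes and to free bacteria. Induction runs from interferon through its receptor and the JAK kinases to transcription factors that bind GAS and ISRE elements in the promoters of these genes.

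Promoter sequence shows where the members of both families are alike, and was available for 9 of the 10 genes in RefSeq promoters of build GRCm38.p6, each running from 250 bases before to 50 bases after an annotated start. *Iigp1* has no entry in that set. An ISRE core, the letters GAAA, any 2 bases and GAAA on either strand, was in 8 of the 10 promoters of these 9 genes (*Gbp3* has 2) and in 3.44% of all 32851 promoters. A GAS element, TTC, any 3 bases and GAA, was in 5 of the 10 and in 8.3% of all. The motifs may overlap each other, and a match describes letters, not binding. In *Irgm2*, *Igtp*, *Tgtp1* and *Tgtp2* a GAS match was followed after 2 bases by an ISRE core on the same strand. This composite was searched for after the sequences had been seen. It was in 5 of the 32851 promoters, 0.0152%, and the fifth was *Gm12185*, another IRG family gene, whose interval in the table overlaps that of *Tgtp1* and which had 0 counts in all 6 libraries. The 5 windows that hold it follow, 5′ to 3′ along the gene's own strand, with both matches in capitals.
*Irgm2*, chr11:58214890-58214934, plus strand: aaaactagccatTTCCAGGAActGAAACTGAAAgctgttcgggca
*Igtp*, chr11:58199499-58199543, plus strand: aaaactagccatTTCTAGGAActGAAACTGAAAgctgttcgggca
*Tgtp1*, chr11:48992302-48992346, minus strand: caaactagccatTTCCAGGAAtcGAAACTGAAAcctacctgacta
*Tgtp2*, chr11:49064261-49064305, minus strand: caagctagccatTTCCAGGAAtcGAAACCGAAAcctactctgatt
*Gm12185*, chr11:48927236-48927280, minus strand: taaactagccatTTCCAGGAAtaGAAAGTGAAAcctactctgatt

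The 8 bases before the GAS match, ctagccat, were the same in all 5 windows. *Igtp* and *Irgm2* were identical at 44 of the 45 bases, *Tgtp1* and *Tgtp2* at 37, and *Irgm2* and *Tgtp1* at 34. The window of *Tgtp2* was closer to that of *Gm12185*, with 40 identical bases, than to that of *Tgtp1*. Counted from the start of transcription, the GAS match began at position -75 in *Irgm2*, -45 in *Igtp*, -88 in *Tgtp1* and -81 in *Tgtp2*. The other promoters with a match lacked the composite, and only that of *Gbp7* held a GAS match. Their windows follow in the same form.
*Irgm1*, chr11:48871423-48871462, minus strand, 2 overlapping ISRE cores: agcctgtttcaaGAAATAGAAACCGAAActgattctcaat
*Gbp7*, chr3:142530218-142530304, plus strand, 2 GAS matches and an ISRE core read on the opposite strand: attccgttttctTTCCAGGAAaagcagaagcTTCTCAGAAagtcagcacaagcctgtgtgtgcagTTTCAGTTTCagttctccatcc
*Gbp3*, chr3:142559987-142560026, plus strand, 2 overlapping ISRE cores on the opposite strand: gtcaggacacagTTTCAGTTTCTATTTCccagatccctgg
*Gbp2*, chr3:142620592-142620625, plus strand, an ISRE core on the opposite strand: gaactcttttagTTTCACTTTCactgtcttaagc

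The 3 GBP promoters thus carried the ISRE core as paired TTTC along the gene, where the IRG promoters with a match carried it as paired GAAA. *Ifi47* and the downstream start of *Gbp3* had no match in their windows. *Gbp2*, whose promoter holds an ISRE core from position -59, is the member that was not lower in KO below.

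**Figure D1:**
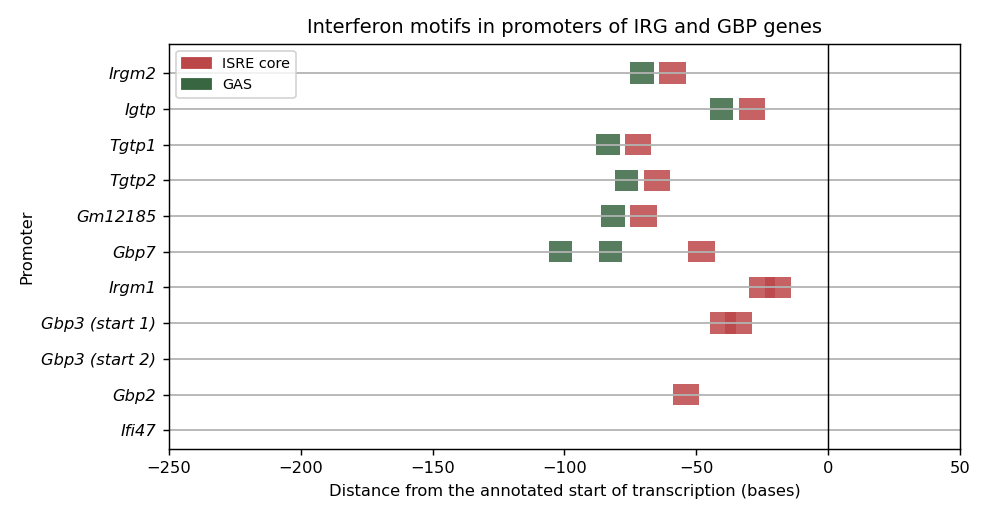
Motif matches in the promoters of 9 members and of *Gm12185*, one row for each annotated start. The horizontal axis is the distance from that start in bases, red boxes are ISRE cores and green boxes GAS matches. The matches lie between positions -106 and -15, and *Irgm2*, *Igtp*, *Tgtp1*, *Tgtp2* and *Gm12185* show the same adjoining pair.

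Across the members, KO libraries held less RNA of the IRG genes and of *Gbp7* and *Gbp3*, and not of *Gbp2*. Levels within a gene are given as CPM, counts scaled to library sizes normalized by edgeR's TMM method. In 8 of the 9 tested members every KO library was below every LOXP library, a pattern that 20.3% of all tested genes showed, and 20.4% showed the opposite one. An adjusted p under 0.05 with a lower level in KO was found for 7 of the 9 and for 11.6% of all tested genes, and *Gbp3* and *Gbp2* were the exceptions. Over the same 9 genes the count was 6 without LOXP replicate 1, LOXP replicate 2, KO replicate 2 or KO replicate 3, each time through *Tgtp1*, and 8 without LOXP replicate 3, where *Gbp3* passed. The study called a gene changed by 3 criteria, namely a mean FPKM above 1 in either group, an adjusted p below 0.05 and a log2 fold change beyond 1 in size. *Iigp1* and *Ifi47* met all 3, as did 1.49% of the tested genes in the lower direction and 0.558% in the higher. Since the members were chosen on this contrast, nothing is read from these counts. The median log2 fold change of the 9 was -0.70, beside -0.00 over all tested genes, and -0.77 over the same 9 without LOXP replicate 2. In bulk RNA, less RNA per cell and fewer cells that make it cannot be told apart.

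**Figure D2:**
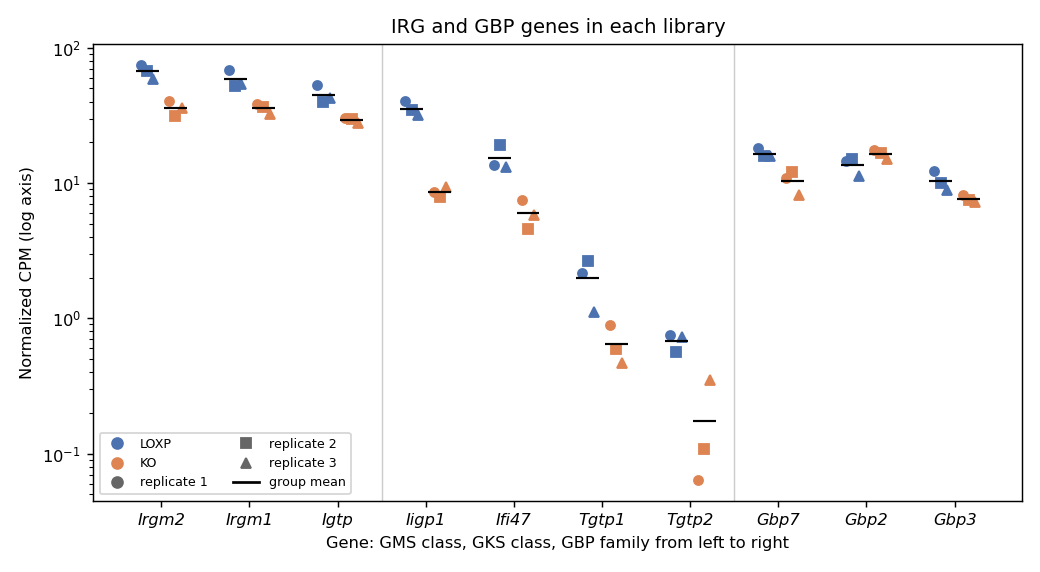
Normalized CPM of the 10 members in each library, on a log axis. Blue symbols are LOXP, orange symbols KO, shapes give the replicate and bars the group mean. The groups are apart for every gene except *Gbp2*, where KO replicate 3 at 14.9 CPM lies just below LOXP replicate 2 at 14.97 CPM.

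The GKS effectors had the widest gaps. *Iigp1* (ENSMUSG00000054072, chromosome 18 from 60509099 to 60525706 in the table's positions, build GRCm39 by the submitters' processing notes) stood at 40.2, 34.5 and 31.9 CPM in LOXP replicates 1, 2 and 3. In KO replicates 1, 2 and 3 it stood at 8.60, 7.82 and 9.39 CPM. The lowest LOXP library was thus far above the highest KO library, and the 3 KO libraries lay close together. The means were 35.5 ± 4.25 and 8.61 ± 0.782 CPM (SD, n = 3), a 4.13-fold difference and a log2 fold change of -2.05 with a standard error of 0.119. Over the 6 fits that each dropped a library, its log2 fold change stayed between -2.12 and -1.95.

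*Ifi47* (ENSMUSG00000078920, chromosome 11 from 48967414 to 48987801) was read at 13.5, 19.2 and 13.2 CPM in LOXP and at 7.46, 4.59 and 5.83 CPM in KO, in replicate order. LOXP replicate 2, the library with high *Ccl2*, was the highest for this gene, and the groups did not overlap. The means were 15.3 ± 3.35 and 5.96 ± 1.44 CPM (SD, n = 3), with a log2 fold change of -1.36 and a standard error of 0.211. Without LOXP replicate 2 the log2 fold change of *Ifi47* was -1.17, the smallest of its leave-one-out values.

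*Tgtp1* (ENSMUSG00000078922, chromosome 11 from 48876154 to 48884999) and *Tgtp2* (ENSMUSG00000078921, from 48948021 to 48955033) encode near-identical proteins and were scarce. *Tgtp1* had 34, 38 and 17 counts in LOXP and 14, 11 and 8 in KO, in replicate order. For *Tgtp2* the counts were 12, 8 and 11 in LOXP and 1, 2 and 6 in KO. Every KO library was below every LOXP library for both copies. Of all 150-base windows of their annotated GENCODE transcripts, 62.5% of those of *Tgtp1* occur in *Tgtp2* and 68.4% of those of *Tgtp2* in *Tgtp1*, so the split of reads between the copies is uncertain. Summed, the pair had 46, 46 and 28 counts in LOXP and 15, 13 and 14 in KO. The ratio of KO to LOXP, pooled over libraries and relative to their normalized sizes, was 0.309 with an exact 95% interval of 0.212 to 0.442 that covers counting error only. Its values for the copies alone were 0.327 (0.213 to 0.493) for *Tgtp1* and 0.256 (0.107 to 0.551) for *Tgtp2*. The fitted log2 fold change of *Tgtp1* was -1.60 (standard error 0.404), between -1.88 and -1.33 with each library left out. In the edgeR fits without LOXP replicate 1 and without LOXP replicate 2, the adjusted p of *Tgtp1* was 0.0619 and 0.0680. Without KO replicate 2 and without KO replicate 3 it was 0.0820 and 0.0799. As a member, *Tgtp1* was chosen on this contrast, so nothing is read from these values. *Tgtp1* missed the study's criteria because its mean FPKM was 0.510 in LOXP and 0.173 in KO.

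The GMS regulators had the highest mean FPKM of the members in LOXP, and their log2 fold changes were nearer to 0 than those of the GKS genes. *Irgm2* (ENSMUSG00000069874, chromosome 11 from 58090444 to 58113608) was at 74.9, 67.6 and 58.9 CPM in LOXP and at 40.2, 31.5 and 35.8 CPM in KO. All 3 KO libraries were well below the LOXP libraries, with means of 67.1 ± 8.03 and 35.8 ± 4.32 CPM (SD, n = 3), a log2 fold change of -0.91 and a standard error of 0.116. *Irgm1* (ENSMUSG00000046879, from 48752795 to 48762510) was at 68.3, 52.6 and 54.1 CPM in LOXP and at 38.2, 36.7 and 32.6 CPM in KO. The LOXP spread of *Irgm1* came from replicate 1, and the log2 fold change came to -0.70 (standard error 0.114). *Igtp* (ENSMUSG00000078853, from 58090382 to 58098417) gave 53.3, 39.7 and 42.2 CPM in LOXP and 30.3, 29.7 and 27.6 CPM in KO. Here too LOXP replicate 1 was the highest and the groups were apart, at a log2 fold change of -0.63 (standard error 0.114), or -0.49 without that replicate. In the table's positions 99.2% of the *Igtp* interval lies inside that of *Irgm2*, and how reads there were shared out is not given in the sources used here. Summed to 1 gene, they had a log2 fold change of -0.79.

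Among the GBP genes, which lie side by side on chromosome 3, the differences did not share a direction, and that of *Gbp7* was close in size to those of *Irgm1* and *Igtp*. *Gbp7* (ENSMUSG00000040253, from 142236103 to 142255910) was at 18.1, 15.7 and 15.7 CPM in LOXP and at 10.96, 12.1 and 8.16 CPM in KO. The groups were apart and KO replicate 3 was the lowest, at a log2 fold change of -0.66 (standard error 0.153). *Gbp3* (ENSMUSG00000028268, from 142265787 to 142278970) was at 12.2, 9.93 and 8.89 CPM in LOXP and at 8.09, 7.50 and 7.29 CPM in KO. The gap between the groups was narrow for *Gbp3*, at a log2 fold change of -0.44 ± 0.146 (standard error). *Gbp2* (ENSMUSG00000028270, from 142326363 to 142343769) was at 14.5, 14.97 and 11.3 CPM in LOXP and at 17.7, 16.7 and 14.9 CPM in KO. For *Gbp2* alone the KO mean was the higher, 16.4 ± 1.38 against 13.6 ± 1.97 CPM (SD, n = 3), and the libraries of the 2 groups overlapped. The log2 fold change of *Gbp2* was 0.27 (standard error 0.130), between 0.16 and 0.35 with each library left out.

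Ordered by log2 fold change, the GKS genes ran from -2.05 to -1.36, the GMS genes from -0.91 to -0.63 and the GBP genes from -0.66 to 0.27. LOXP replicate 1 was the highest LOXP library for 7 of the 10 members and LOXP replicate 2 for 3. KO replicate 3 was the lowest KO library for 6 members, replicate 2 for 3 and replicate 1 for 1. The mean standardized profile of the tested members over the 6 libraries had Pearson r between 0.903 and 0.970 with each of them except *Gbp2*, at -0.38 (-0.382). With 6 points in 2 groups these r values mostly restate the group difference. The non-member genes closest to that profile were *Gm6335* (r = 0.997), *Bmyc* (0.996), *4931406C07Rik* (0.995), *Mup21* (0.994) and *Myef2* (0.994), of which *4931406C07Rik* (log2 fold change -0.42, adjusted p = 0.00908) and *Mup21*, a major urinary protein gene (-0.59, adjusted p = 0.0189), fell in KO. *Mup21* lost that call without KO replicate 2 (adjusted p = 0.0589) and without KO replicate 3 (0.0663).

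Levels of different genes can be compared only per length, as FPKM, the counted reads scaled to gene length and library size. In LOXP the order by mean FPKM was *Igtp* 8.69 ± 1.499, *Irgm1* 7.05 ± 1.13 and *Irgm2* 6.33 ± 0.786 (SD, n = 3), whose ranges overlapped. *Gbp2* followed at 4.73 ± 0.664 FPKM, its 3 libraries apart from those of both neighbours in the order. *Iigp1* at 3.05 ± 0.388, *Gbp7* at 2.49 ± 0.233, *Ifi47* at 2.29 ± 0.467 and *Gbp3* at 1.69 ± 0.293 FPKM each overlapped with the next. *Tgtp1* (0.510 ± 0.198 FPKM) and *Tgtp2* (0.211 ± 0.0356 FPKM) were the lowest and apart. In KO *Gbp2* headed the order at 5.86 ± 0.459 FPKM, level with *Igtp* at 5.76 ± 0.240 FPKM, and *Iigp1* at 0.757 ± 0.0770 FPKM was below *Gbp3* at 1.27 ± 0.0678 FPKM and overlapped with *Ifi47* at 0.916 ± 0.225 FPKM. The length behind these values, implied by count and FPKM, ran from 2.83 kb for *Gbp2* to 11.5 kb for *Iigp1*, so the order depends on the gene models the authors used.

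Summed by class, the GMS genes held 25.9, 20.1 and 20.3 FPKM in LOXP and 14.6, 13.3 and 13.1 FPKM in KO. The GKS genes held 6.33, 6.59 and 5.25 FPKM in LOXP and 2.16, 1.57 and 1.98 FPKM in KO. The GBP genes held 9.87, 9.06 and 7.80 FPKM in LOXP and 9.35, 8.98 and 7.89 FPKM in KO, so their sum overlapped between the groups. Among the members, the makeup by class differed between the groups. GKS summed FPKM was 24.5%, 32.9% and 25.9% of the GMS sum in LOXP and 14.8%, 11.8% and 15.1% in KO. GBP summed FPKM was 38.1%, 45.2% and 38.4% of the GMS sum in LOXP and 64.1%, 67.5% and 60.4% in KO. Neither ratio overlapped between the groups, but both were built only from members chosen on this contrast, so nothing is read from them. The 21 other rows of these families summed to 39.7 to 46.8 FPKM in LOXP and to 30.1 to 45.8 FPKM in KO.

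**Figure D3:**
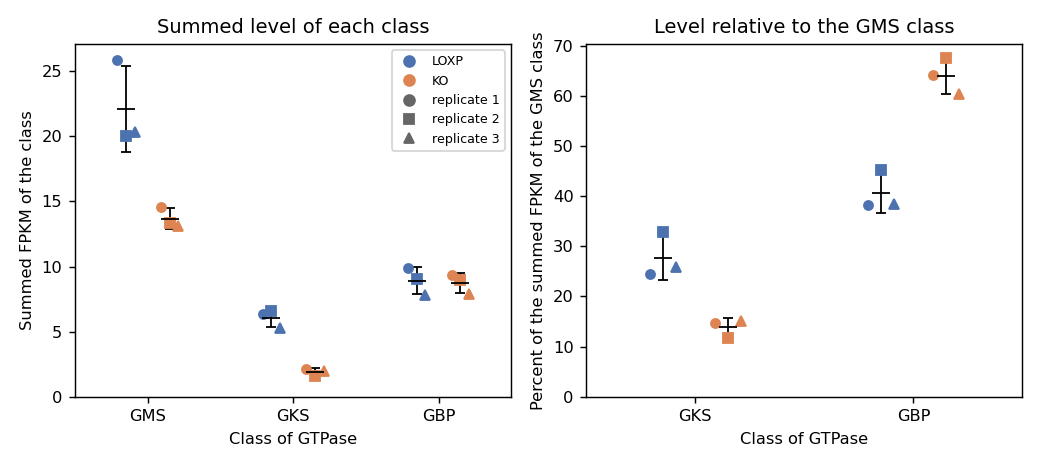
Left, summed FPKM of the GMS, GKS and GBP members in each library. Right, the GKS and GBP sums as a percentage of the GMS sum. Blue is LOXP, orange KO, shapes give the replicate, and bars show the mean and SD of 3 libraries. The GKS share of the GMS sum is 27.7% ± 4.50 in LOXP and 13.9% ± 1.85 in KO, and the GBP sums overlap.

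Other genes of these families are outside the 10 and were tested, from a list drawn up with earlier results of these data known. Of 32 listed names, 21 rows of the table matched and 8 rows were tested, of which 3 fell in KO, none rose, and the median log2 fold change was -0.26. Over the same 8 rows 1 fell without LOXP replicate 1, LOXP replicate 2 or KO replicate 1 and 2 without KO replicate 2 or 3, and the median stayed between -0.33 and -0.26. With the rows that newly passed the filter included, the median was -0.40, -0.46 and -0.64 without KO replicates 2, 3 and 1. Over all tested genes 11.5% rose with an adjusted p under 0.05. *Iigp1c* (ENSMUSG00000073555, chromosome 18 from 60345152 to 60380892), an IRG gene near *Iigp1*, was at 7.38, 4.48 and 5.27 CPM in LOXP and at 1.21, 1.13 and 0.758 CPM in KO. It was the most reduced of them, at -2.46 ± 0.276 (log2 fold change and standard error, adjusted p = 6.16e-04). No 150-base window of its annotated transcript is shared with a member. *Gbp6* on chromosome 5 was at 9.66, 11.5 and 5.20 CPM in LOXP and at 3.19, 4.64 and 1.69 CPM in KO (log2 fold change -1.46, adjusted p = 0.0263). *Gbp9* beside it was at 3.79, 4.34 and 3.16 CPM in LOXP and at 1.91, 1.295 and 2.51 CPM in KO (-0.98, adjusted p = 0.0306). The groups did not overlap for either gene, yet both calls were lost when some libraries were left out. *Gbp6* had an adjusted p of 0.0747 without KO replicate 1, 0.0659 without KO replicate 3, 0.0672 without LOXP replicate 1 and 0.0680 without LOXP replicate 2. *Gbp9* had 0.0809 and 0.0968 without KO replicates 1 and 2, and 0.0685 and 0.0811 without LOXP replicates 1 and 2. The GBP genes of chromosome 5 resemble each other and some of their intervals overlap, so reads may have been split among them.

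The remaining tested family genes did not pass. *9930111J21Rik2*, within the chromosome 11 cluster, had a log2 fold change of -0.40 (adjusted p = 0.102) and *9930111J21Rik1* one of 0.14 (adjusted p = 0.831). The GVIN genes, which encode very large inducible GTPases, lay near no difference, with *Gvin2* at -0.05 (adjusted p = 0.715) and *Gvin-ps1* at -0.13 (adjusted p = 0.508). *Gvin1* varied widely within both groups, from 91.3 to 179 CPM in LOXP and from 65.9 to 210 CPM in KO (log2 fold change 0.03, adjusted p = 0.964). Among the 13 untested rows, *Gbp4* had 13, 16 and 3 counts in LOXP and 0, 9 and 4 in KO, and *Gbp5* 1, 21 and 6 in LOXP and 6, 1 and 4 in KO. These depths cannot show a difference for such genes.

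Upstream of the members, the interferons themselves were at or near the detection limit. None of the 20 interferon genes listed was tested, and 17 had 0 counts in every library, *Ifng* and *Ifnb1* among them. Taken alone, 0 counts in 1 library allow up to 3 expected counts there at 95%. For 0 counts in all 6 libraries the limit per library is lower. *Ifnk* was the highest, with 7, 8 and 12 counts in LOXP and 12, 3 and 3 in KO. Of 9 receptor and kinase genes 1 fell, the kinase gene *Jak2* (log2 fold change -0.34, standard error 0.0719, adjusted p = 0.0109). The receptor chains for interferon gamma had log2 fold changes of -0.21 (*Ifngr1*, adjusted p = 0.0635) and -0.14 (*Ifngr2*, 0.408), and those for type I interferon -0.31 (*Ifnar1*, 0.191) and -0.23 (*Ifnar2*, 0.115). The kinase genes *Jak1* (-0.12, adjusted p = 0.0884) and *Tyk2* (-0.00, 0.994) did not pass.

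Of 10 tested transcription factors of the pathway 4 fell in KO, 2 without KO replicate 1 and 3 without LOXP replicate 2, and none rose. *Irf9*, part of an ISRE-binding complex, was at 62.2, 57.1 and 57.5 CPM in LOXP and at 35.0, 38.8 and 34.7 CPM in KO (log2 fold change -0.70, standard error 0.0756, adjusted p = 5.12e-04). *Irf1*, a factor induced by interferon gamma that activates many IRG and GBP genes, was at 13.3, 23.8 and 15.4 CPM in LOXP and at 8.16, 9.07 and 9.91 CPM in KO (-0.95, standard error 0.212, adjusted p = 0.0146). LOXP replicate 2 was the highest library for *Irf1*, but none of the KO libraries reached any LOXP library for either factor. The call of *Irf1* was lost without KO replicate 1 (adjusted p = 0.0539). *Stat2* fell by 0.41 in log2 units (adjusted p = 0.0153, and 0.0631 without KO replicate 2), and *Irf5* by 0.46 (adjusted p = 0.0460). *Irf5* kept its call without LOXP replicate 3, and with any other library left out its adjusted p was between 0.0650 (without KO replicate 3) and 0.123 (without LOXP replicate 2). *Nlrc5*, the activator of MHC class I genes, at -0.13 (adjusted p = 0.307) and *Irf7* at -0.21 (adjusted p = 0.311) did not pass. Without KO replicate 2, *Irf7* had a log2 fold change of -0.40 and an adjusted p of 0.0382.

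The inhibitors of the pathway did not move together. Of 14 tested, 3 fell and 2 rose. *Usp18*, an interferon-induced protease that damps the type I receptor, was at 89.5, 73.8 and 73.6 CPM in LOXP and at 30.7, 28.3 and 32.2 CPM in KO (log2 fold change -1.38, adjusted p = 7.79e-05). The log2 level of *Socs2* fell by 0.77 (adjusted p = 0.00180). *Socs1* and *Socs3*, which block the JAK kinases, had log2 fold changes of 0.52 (adjusted p = 0.388) and 0.03 (adjusted p = 0.939). *Trim24* fell by 0.26 (adjusted p = 0.0391) and *Pias1* rose by 0.32 (adjusted p = 0.0324), and each lost its call whichever library was left out, with adjusted p up to 0.139 for *Trim24* (without KO replicate 2) and 0.110 for *Pias1* (without KO replicate 3). *Ptpn1* rose by 0.24 (adjusted p = 0.0226), a call lost without LOXP replicate 3 (0.0703), KO replicate 2 (0.0791) or KO replicate 3 (0.0623).

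**Figure D4:**
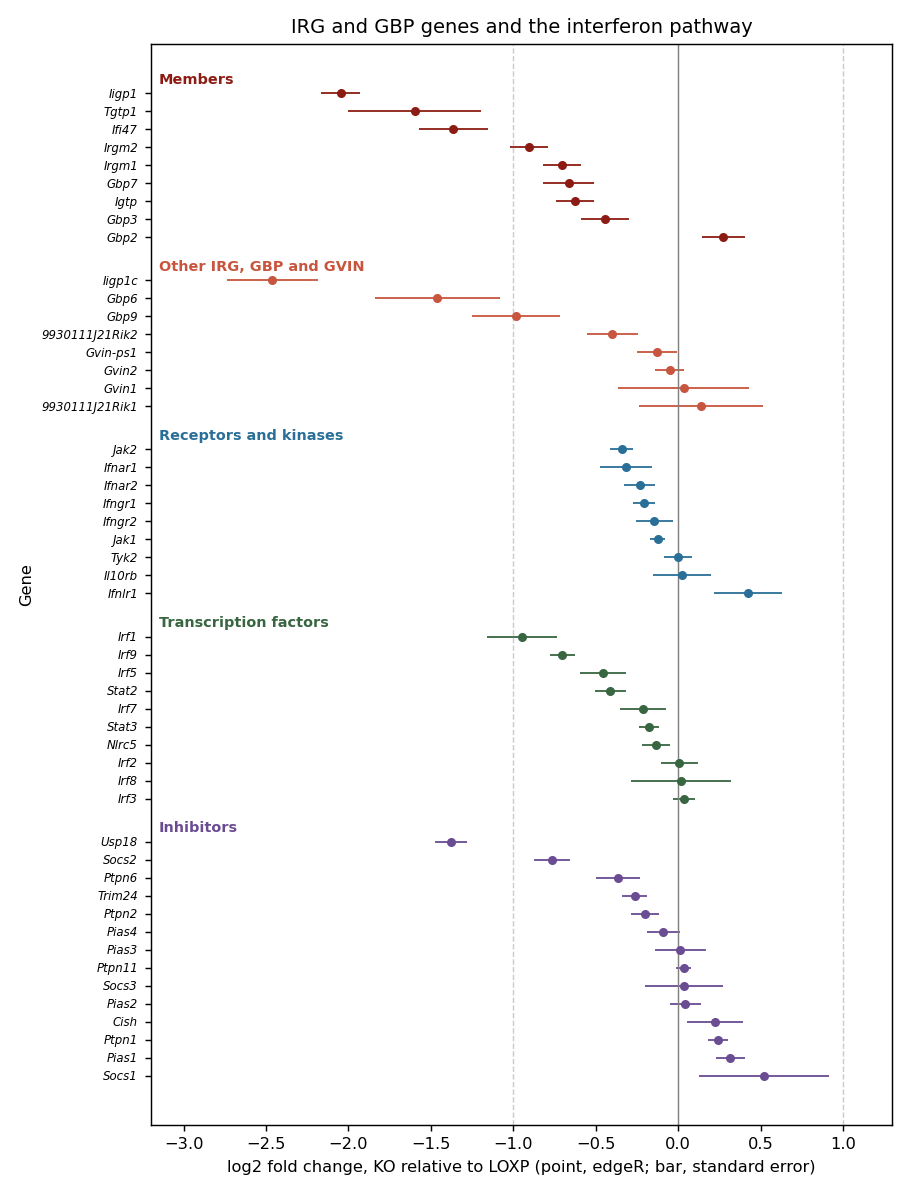
Log2 fold change of KO relative to LOXP for the tested members, the other tested genes of their families and the receptors, transcription factors and inhibitors of the interferon pathway. Points are edgeR estimates, bars their standard errors, and dashed lines mark a log2 fold change of -1 and 1. *Iigp1*, *Ifi47*, *Tgtp1*, *Iigp1c*, *Gbp6* and *Usp18* lie beyond -1, and *Gbp2* lies above 0.

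Proteins that meet the IRG and GBP proteins at the vacuole, from autophagy conjugation to ubiquitin ligases and galectins, gave 8 genes that fell and 1 that rose of 26 tested. Without KO replicate 1 these were 5 and 0 and without LOXP replicate 2 they were 6 and 1, and the rise was also lost without LOXP replicate 3, KO replicate 2 or KO replicate 3. Their median log2 fold change was -0.19. On the log2 scale *Trim21*, a ubiquitin ligase, fell by 1.01 (adjusted p = 0.00169), *Lgals9*, a galectin that binds sugars on broken vacuoles, by 0.52 (adjusted p = 2.53e-04), *Atg5*, part of the autophagy conjugation machinery, by 0.50 (adjusted p = 0.00470) and *Rnf213*, a ubiquitin ligase, by 0.43 (adjusted p = 0.0105). Membrane GTPases that work without interferon stood near the centre of all genes, with a median of -0.07 over 12 tested. Among them dynamin 2, *Dnm2*, fell by 0.51 (adjusted p = 0.00233) and mitofusin 2, *Mfn2*, rose by 0.25 (adjusted p = 0.0168), while *Atl1* (-0.59, adjusted p = 0.0903) and *Ehd3* (-0.50, adjusted p = 0.108) did not pass. The rise of *Mfn2* was not called without LOXP replicate 3 (adjusted p = 0.0587), KO replicate 2 (0.0719) or KO replicate 3 (0.0578).

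Other targets of interferon give the scale beside which the members stand. Of 35 tested antiviral genes 20 fell and none rose, with a median log2 fold change of -0.53, and 18 of the same 35 fell without LOXP replicate 2. *Isg15*, a ubiquitin-like modifier, fell by 1.70 (adjusted p = 8.72e-05), *Zbp1* by 1.17 (adjusted p = 0.00114), *Parp14* by 1.07 (adjusted p = 5.11e-04) and *Ifih1*, the RNA sensor MDA5, by 0.82 (adjusted p = 3.58e-04). Of 22 MHC class I genes 10 fell, with a median of -0.22, and 5 passed without LOXP replicate 2 as without KO replicate 1. *H2-Q6* fell by 1.13 (adjusted p = 0.00336), *Tap1* by 0.80 (adjusted p = 0.00245), *H2-Q7* by 0.78 (adjusted p = 5.39e-04) and *H2-Q4* by 0.73 (adjusted p = 0.00206). The H2-Q genes resemble each other, and reads may have been split among them.

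**Figure D5:**
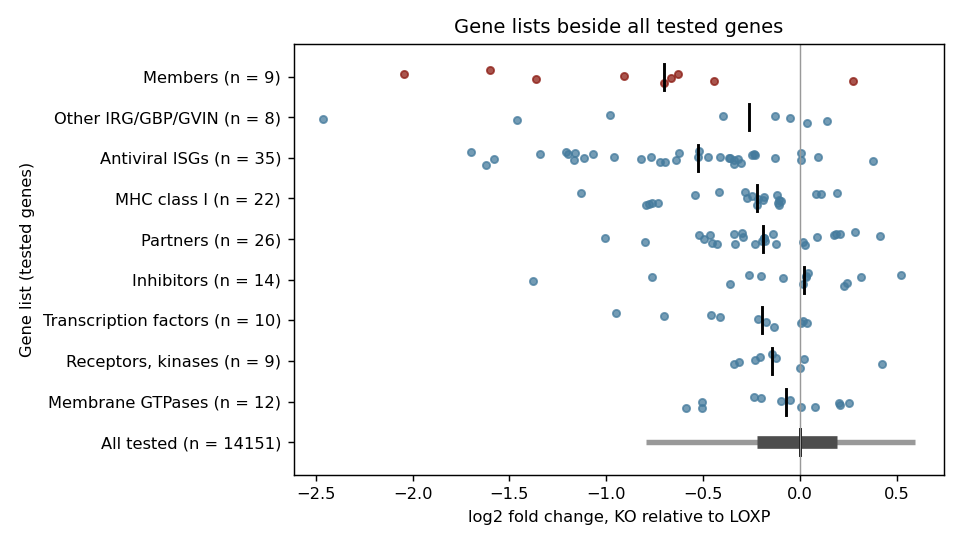
Log2 fold changes of KO relative to LOXP for the tested genes of each list. Each point is a gene, black ticks are medians, and for all 14151 tested genes the thick bar runs from the lower to the upper quartile and the thin bar from the 5th to the 95th percentile. The members' median is -0.70, that of antiviral genes -0.53 and that of all tested genes -0.00.

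The members lie in 4 gene clusters, so their neighbours were read from the same fit. Of 34 tested genes of other families within 500 kb of a member, 6 fell and 5 rose in KO, with a median log2 fold change of 0.02. The shares over all tested genes with an adjusted p under 0.05 were 11.6% lower and 11.5% higher. Around *Irgm1*, *Ifi47*, *Tgtp1* and *Tgtp2* 4 of 9 fell and 1 rose, with a median of -0.30. The 4 were *Trim7*, *Zfp62* (-1.13, adjusted p = 0.00571), *Trim41* (-0.32, adjusted p = 0.0168) and *Psme2b* (-0.29, adjusted p = 0.0163), and the last 3 were named after their values had been seen. These were 2 without LOXP replicate 3 or KO replicate 2 and 3 without LOXP replicate 2 or KO replicate 1, and the median stayed between -0.35 and -0.26. In the other 3 clusters at most 1 neighbour each fell, and the medians were 0.02, 0.03 and 0.12. Whether the clusters differ was not tested. Over all 34, the 3 neighbours with the smallest adjusted p did not share a direction. *Rbm22*, near *Iigp1*, fell by 0.80 (adjusted p = 1.76e-04), and *Trim7*, near *Irgm1*, fell by 1.05 (adjusted p = 3.77e-04). *Gemin5*, near *Igtp* and *Irgm2*, rose by 0.60 (adjusted p = 4.40e-04).

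Markers of other liver cells were read because IRG and GBP genes are made by many cell types. Over 21 macrophage markers the summed FPKM was 115 to 126 in LOXP and 97.5 to 107 in KO. *Cd14* and *Cd68* led this sum, with mean FPKM of 36.9 and 29.3 over all libraries. No macrophage marker was at 0 in all libraries, and 3 of 19 tested fell. Of the 19, 11 had a negative log2 fold change and 8 a positive one, with a median of -0.12. *Cd68* fell by 0.87 (adjusted p = 4.21e-04), while *Cd14* (-0.03, adjusted p = 0.840) and *Lyz2* (0.18, adjusted p = 0.353) did not pass. Endothelial markers summed to 39.8 to 44.5 FPKM in LOXP and 38.0 to 41.4 in KO, with 1 of 16 lower (3 without LOXP replicate 2), and stellate markers to 15.4 to 16.5 and 15.6 to 17.0 FPKM, with none of 11 passing. The abundant endothelial genes *Cdh5* (0.01, adjusted p = 0.977), *Lyve1* (-0.20, 0.331) and *Eng* (-0.06, 0.805) did not pass, nor did the stellate genes *Ecm1* (-0.13, 0.289), *Dcn* (0.16, 0.247) and *Acta2* (0.23, 0.532). Cholangiocyte markers summed to 124 to 145 FPKM in LOXP and 65.7 to 77.0 in KO. Most of this sum was *Cldn4*, with a mean FPKM of 83.4 over all libraries. *Cldn4* (-1.03, adjusted p = 2.81e-04), *Sox9* (-0.87, 4.08e-04) and *Spp1* (-2.04, 3.88e-05) fell. Of 5 tested cholangiocyte markers these were the 3 lower, and *Krt19* was higher (0.82, adjusted p = 0.0479). *Krt19* kept that call without LOXP replicate 1, and without any other library its adjusted p was between 0.0820 and 0.152. It was named after its values had been seen. Of 14 lymphocyte markers 13 were at 0 in all libraries and *Cd79b* had 4 counts, and 10 neutrophil markers had 52 counts in all, with 4 of them at 0. *Csf3r* led the neutrophil list with 29 counts in LOXP and 10 in KO. Of 19 hepatocyte markers 14 fell, *Alb* (-0.27, adjusted p = 0.00319) and *Serpina1c* (-0.39, 0.00325) among them, while *Apoa1* had -0.09 (0.232). A negative log2 fold change was found for 18 of the 19 and a positive one for 1. Their median was -0.44, the lowest value was -3.30, and 3 were lower by the study's 3 criteria. The part of these markers in the members' values was not tested.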

How the data were processed

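RNA of palmitate-treated mouse primary hepatocytes was sequenced in 3 LOXP and 3 KO libraries, grouped by their labels. Per the study's methods and the submitters' processing notes, the authors cleaned reads with fastp, mapped them with HISAT2 and used StringTie and edgeR, with build GRCm39. The annotation, the counting tool and the strand setting are not given in the sources used here. The authors deposited for each gene and library an unnormalized count of reads, and FPKM values made from it with a gene length and the library's total. The table has no columns of the authors' own comparisons.

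The count analysis ran edgeR 4.0.16 under R 4.3.3, with filterByExpr at a minimum count of 10, TMM, the two-sided quasi-likelihood test without a block and Benjamini-Hochberg adjustment over all 14151 tested genes. Adjusted p values are from that fit unless a left-out library or another tool is named beside them. The biological coefficient of variation was 0.118. The scripts were tested on simulated data. Depth limits genes with few reads, and intervals cover counting error only.

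The members, gene lists, rule for named genes and tests were chosen with earlier results of these data known. Named are all members, the tested genes of their families, the main signalling genes and any other with an adjusted p under 0.05, the 4 genes of each further list and the 3 neighbours with the smallest adjusted p, the 5 closest profiles, *Sting1*, *Ccl2*, *Il1b* and for each cell type its 3 markers with the highest FPKM. Low-count family and interferon genes with their counts were named after their values had been seen. Alternatives were DESeq2 1.42.0, upper-quartile factors, a block for the replicate number, filters of 1 count in total or 10 in each library, leaving out single libraries, limma-trend (limma 3.58.1) on log2 of FPKM with a pseudocount of 1 or of 0.1, and call rules without the FPKM or the fold criterion. Promoters were searched in Python 3.11.15 in RefSeq windows of build GRCm38.p6, which is not the build of the table. Figures were drawn with matplotlib 3.10.9. Protein sequences were not used here, and 1 gene of the pathway is not reported here.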

Additional observations from a re-analysis of the deposited data

How the results depend on the processing

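Of the counts of called genes and the member median, 50 of 60 values under the alternatives stayed close to those reported, meaning within 1.5 times for a count and within 0.138, the SD between replicates, for the median. limma-trend on log2(FPKM + 1) called 93 genes lower and 38 higher, kept 1 called member, *Iigp1*, and put the member median at -0.51, a scale on which the pseudocount shrinks the differences of genes with low FPKM. Without the FPKM criterion the genes lower in KO were 373 and the genes higher in KO 150, and without the fold criterion 1389 and 1517, with 6 members. Leaving out each library moved the member median between -0.87 (without KO replicate 1) and -0.60 (without LOXP replicate 1), the genes called lower between 193 and 223 and those called higher between 71 and 86. *Tgtp2* passed the filter without LOXP replicate 2 or any of the KO libraries, and over the same 9 genes the median ran from -0.79 (without KO replicate 2) to -0.60. Each tested member kept its direction in every alternative that gave it a value. The 2 sums of neighbouring members, *Tgtp1* with *Tgtp2* and *Igtp* with *Irgm2*, the latter chosen after the data were seen, left the member median at -0.70 and -0.75.

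Genes near no difference changed sign, and the cause was not tested. *Cd14* went to 0.0093 in the limma fit with a pseudocount of 1 and 0.0096 with 0.1, and ran from -0.092 to 0.061 over the leave-one-out fits. The log2 fold change of Cdh5 went to -0.00263 with upper-quartile factors and ran from -0.072 to 0.079. The log2 fold change of Gvin1 went to -0.044 with the replicate block, to -0.021 and -0.030 in the same limma fits, and ran from -0.27 to 0.40. *Tyk2* went to 0.0021 with every gene of at least 1 count, to 0.030 and 0.034 in the limma fits, and ran from -0.067 to 0.058. The leave-one-out fits also moved *9930111J21Rik1* from -0.14 to 0.66, *Eng* from -0.15 to 0.10, *Gvin2* from -0.13 to 0.00042, *Socs3* from -0.18 to 0.37 and *Sting1* from -0.26 to 0.11.

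Whether the replicate numbers pair the libraries could not be settled with 3 libraries a group. Deviations from the group means correlated at 0.120, 0.0834 and 0.0134 for libraries that share number 1, 2 or 3. For libraries of different numbers the correlations ran from -0.131 to 0.0459. With the number as a replicate block 201 genes were called lower and 79 higher, *Iigp1* and *Ifi47* stayed called, and the adjusted p of *Gbp9* became 0.0619 and that of *Irf5* 0.0778. *Trim24* and *Pias1* also lost their calls with DESeq2 (0.0563 and 0.0642). With 3 libraries a group and few reads, differences of *Tgtp1*, *Tgtp2* and the untested family genes are known least precisely.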
